A study of Mus musculus with 7 samples.

Results

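B lineage lymphocytes were examined in a droplet single-cell library of trigeminal ganglia (the sensory ganglion of the face) from wild type mice, collected at postnatal day 3.5. Members were chosen by their measured levels of 5 genes: a member was a barcode in which the antigen receptor signalling chains Cd79a and Cd79b together held at least 5 of every 10000 UMIs (unique molecular identifiers, each standing for 1 captured transcript) and the macrophage genes C1qa, C1qb and C1qc fewer than 20. Barcodes entered with at least 1000 UMIs, at least 500 genes and at most 20% mitochondrial UMIs. The rule took 114 of 9427 kept barcodes, or 1.21% (95% exact Clopper-Pearson interval 0.999 to 1.45). The series also holds 6 libraries from molars at postnatal day 7.5 after TMX induction, 3 from controls labelled wild type and 3 from Gli1-CreER;Fgfr2fl/fl mutants, in which a tamoxifen-inducible Cre under Gli1 control acts on a floxed Fgf receptor gene. The molar libraries were not analysed here, so no genotypes were compared. The labels do not give the number of animals pooled, or whether blood was washed out.

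B lineage cells assemble their antigen receptor in steps. A pro-B cell rearranges the heavy chain locus with the recombinases Rag1 and Rag2, a pre-B cell pairs the new mu heavy chain with a surrogate light chain made of Igll1 and Vpreb proteins and divides, and a later pre-B cell leaves the cycle, rearranges a kappa or lambda light chain and becomes an immature B cell. In the mouse these steps run in the fetal liver and then in the bone marrow, and B cells that have left the marrow circulate through blood and tissues.

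The 250 bases upstream of Cd79a, Igll1 and Vpreb1 in RefSeq (GRCm38.p6) are shown because Cd79a chose the members and the surrogate light chain genes divide them. Capitals mark matches, on either strand, to CAGGTG, an E-box bound by E2A proteins, and to TCCC and GGGA with 3 bases between them. The second is a variant of the palindrome searched for EBF factors, which has 2 bases between its arms. The Cd79a stretch is chr7:24897247-24897496 on the plus strand, the Igll1 stretch is chr16:16863986-16864235 on the minus strand, and the Vpreb1 stretch is chr16:16869256-16869505 on the minus strand. Upstream here refers to the RefSeq gene start. The gene coordinates given further below come from GENCODE, and its span of Vpreb1 (chr16:16868403-16870843) contains the whole Vpreb1 stretch.
Cd79a: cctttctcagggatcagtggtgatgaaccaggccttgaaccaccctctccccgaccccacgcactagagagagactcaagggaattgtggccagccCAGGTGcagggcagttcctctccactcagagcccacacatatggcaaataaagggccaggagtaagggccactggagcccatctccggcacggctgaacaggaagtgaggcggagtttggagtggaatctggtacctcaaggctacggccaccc
Igll1: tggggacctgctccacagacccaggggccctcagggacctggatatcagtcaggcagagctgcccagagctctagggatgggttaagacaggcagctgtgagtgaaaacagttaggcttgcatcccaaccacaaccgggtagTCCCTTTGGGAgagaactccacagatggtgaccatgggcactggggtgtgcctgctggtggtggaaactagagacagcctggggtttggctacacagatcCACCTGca
Vpreb1: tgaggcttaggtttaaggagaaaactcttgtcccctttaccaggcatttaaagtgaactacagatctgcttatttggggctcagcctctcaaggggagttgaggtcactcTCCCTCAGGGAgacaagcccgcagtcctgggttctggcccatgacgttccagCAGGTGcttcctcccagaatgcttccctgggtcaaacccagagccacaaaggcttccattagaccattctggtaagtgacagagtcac
CAGGTG was found in all 3 stretches and in 17.2% of 32851 mouse promoter stretches of this length. The variant with 3 bases between its arms was found in Igll1 (TCCCTTTGGGA) and Vpreb1 (TCCCTCAGGGA), not in Cd79a, and in 0.673% of all stretches. The form with 2 bases between the arms, held by 0.779% of all stretches, was in none of the 3. The Vpreb2 stretch, searched as well, held CAGGTG and neither form of the palindrome, and it partly overlaps the GENCODE span of Vpreb2. The search for the form with 3 was added after the sequences had been seen. These letter matches are a description of the sequence and were not tied to any binding measurement. Sites that depart from these letters were not searched, so a missing match does not show that a factor cannot bind.

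The library held 13065 barcodes and 149040354 UMIs. Members had a median of 4385.5 UMIs (1058 to 49343) and 2106 genes, against a median of 10935 UMIs in the 9313 other kept barcodes. There is 1 ganglion library and no replicate, so no difference below was tested. UMIs were summed over barcodes and given as counts per 1000000 UMIs (CPM), and every interval is a 95% interval that covers counting error only. Genes with 20 or more UMIs in the 2 sets together were compared, and one was called higher at a ratio from 2 upward or lower at a ratio up to 0.5, provided the interval did not include 1. By this rule 9.25% of 19927 genes were called higher in members than in the other kept barcodes and 18.6% were called lower, and the median ratio over these genes was 0.631.

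The levels of Cd79a and Cd79b chose the members and are given as a description. Members held 5.38 to 143 UMIs per 10000 of the pair, with a median of 33.1. The lowest member had 5.38 and the highest barcode left out by this level had 4.87, with 14 members between 5 and 8 and 42 kept barcodes between 2 and 5. The limit on C1q genes left out 4 more barcodes. In 10 members the pair was represented by a single UMI, and these 10 were shallow, with 1058 to 1832 UMIs.

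The label was checked with 15 B lineage genes that the rule did not use. In members 14 of the 15 were called higher, with a median ratio of 191, and none was called lower. Pax5, the factor that fixes B identity, stood at 180 CPM in members and 0.124 CPM elsewhere. Pou2af1, a B cell transcriptional coactivator, had 152 UMIs in 75 members and 3 elsewhere, and Vpreb3, a relative of the surrogate light chain genes, had 1433 UMIs in 101 members and 59 elsewhere. These 3 genes were thus nearly absent outside the members. Ighm, the mu heavy chain, had 1456 UMIs in 104 members, at 1516 CPM, and was at 73.7 CPM in macrophage barcodes, 36.6% of which had a UMI of it. The adaptor Blnk was at 459 CPM in members and 71.5 CPM in macrophage barcodes, so it was not limited to members. Ebf1, an early B lineage factor, was at 2097 CPM in members but also at 394 CPM in fibroblast barcodes, and its ratio was 6.66 (6.36 to 6.96). Ralgps2, at a ratio of 1.97 (1.56 to 2.45), missed the call.

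Agreement of these genes within single barcodes separated the 10 members with 1 Cd79 UMI from the others. The 10 had no UMI of any of the 14 identity genes other than Ebf1. Of the 104 members with at least 2 Cd79 UMIs, 103 had UMIs of at least 3 of the 14, with a median of 8 (2 to 13), and 211 of the other barcodes also had at least 3. At least 5 of the 14 were found in 99 members and in 15 of the 9313 other barcodes. By genes outside the rule the label thus rested on the 99 members with at least 5 and had no support in the 10, so the stage shares below are also given without these.

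Macrophage, neutrophil, neuron and fibroblast genes were low in the members when UMIs were summed over barcodes. All 7 tested macrophage genes and 10 of 12 neutrophil or monocyte genes were called lower, with Fcgr1, Ltf and Elane at 0. The neutrophil or monocyte list summed to 64.6 CPM in members against 2266 CPM in the other barcodes. The macrophage list summed to 21.9 against 469 CPM, but unlike the 7 tested genes this sum includes C1qa, C1qb and C1qc. Their limit helped choose the members, so part of that gap was set by the rule. C1qa and C1qc were at 88.9 and 74.9 CPM in the other barcodes and had no UMI in members. Neuron genes (7 of 7) and fibroblast genes (6 of 6) were also called lower, at summed levels of 654 and 2029 CPM in members against 4441 and 11525 CPM. Even so, 21 members held at least 50 UMIs per 10000 of the fibroblast, glial or neuron list, and 8 of these 21 were among the 10 members with a single Cd79 UMI. By the median barcode the neuron list was higher in members, at 6.79 UMIs per 10000 against 3.74 in the other barcodes. The fibroblast and glial medians were lower, at 3.66 against 37.0 and 6.67 against 27.3. Neuron barcodes supplied 354621 of the 610180 neuron list UMIs outside the members. The T and NK cell list was at 52.1 CPM in members and 42.9 CPM elsewhere, with 2 of 11 tested genes called higher and 1 lower. Of its genes Cd3e, Cd3g, Trac, Trbc1, Cd4 and Gzma had no UMI in members. Trbc2, a T cell receptor constant gene, had 32 UMIs in 7 members, 25 of them in a single member with 58 Cd79 UMIs. The plasmacytoid dendritic cell list was at 592 against 43.3 CPM, with 3 of 5 tested genes called higher (Ly6d, Siglech and Ccr9), and 526 of its 569 UMIs came from Ly6d, which B progenitors also express. Siglech, a plasmacytoid dendritic cell marker, had 10 UMIs, all in a single member that also held 20 Cd79 UMIs, 10 Ighm UMIs and UMIs of 10 of the 14 identity genes. Of 5 endothelial genes 1 was called higher, Pecam1, and 3 lower, and the list was at 175 against 164 CPM. Globin RNA reached every member, with Hbb-bs in 114 of 114 barcodes at 17209 CPM, against 27705 CPM elsewhere.

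Members were divided by developmental stage with 2 measures. Those with at least 5 UMIs per 10000 of Igll1, Vpreb1 and Vpreb2 formed a surrogate light chain group of 52, or 45.6% (36.3 to 55.2). Those below that level with at least 2 per 10000 of Ms4a1 (the B cell surface protein CD20) and Ighd (the delta heavy chain) formed a late group of 30, or 26.3% (18.5 to 35.4). Of the 52, 6 also reached the late level, and of the 30, 5 lay within 2 times that level. The remaining 32 formed the third group, 28.1% of members. All 10 members with a single Cd79 UMI fell in the third group, and without them the groups held 52, 30 and 22 of 104. Below, the third group means its 22 members with at least 2 Cd79 UMIs. Median depth differed between the groups, at 7547.5 UMIs in the surrogate light chain group, 3580.5 in the late group and 4249.5 in the third.

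The surrogate light chain genes were detected together. They lie on chromosome 16 of GRCm38, Igll1 at chr16:16860671-16863985, Vpreb1 at chr16:16868403-16870843 and Vpreb2 at chr16:17980428-17981273. Igll1 had 787 UMIs in 54 members, Vpreb1 had 822 UMIs in 51 and Vpreb2 had 116 UMIs in 33. Igll1 and Vpreb1 shared 49 members, 5 had Igll1 without Vpreb1 and 2 had Vpreb1 without Igll1, while 58 members had neither. Both genes were thus present or absent together in nearly all members. Within the surrogate light chain group the 3 genes summed to 5.29 to 128 UMIs per 10000, with a median of 25.9. Members near the level were few, with 8 at 5 to 10 per 10000 and 3 just under it. Outside the members, Igll1 or Vpreb1 had a UMI in 1.54% of barcodes, and in 1.48% of fibroblast barcodes, which should lack both genes and had a median of 11855 UMIs. Fibroblast barcodes with a Cd79 UMI had been left out, so their share may understate stray B lineage RNA. After every barcode had been thinned to 2000 UMIs, the share was 50.5% of 99 members and 0.256% of 8218 other barcodes, with 15 and 1095 shallower barcodes left out. The longest transcripts of Vpreb1 and Vpreb2 were 86.5% identical over 773 aligned bases, so how UMIs divide between this pair is uncertain.

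Conventional light chain transcripts lay mostly in the other members. Igkc, the kappa constant region, had 953 UMIs in 59 members and 18 UMIs in all other barcodes. The 4 light chain constant genes summed to 0 to 56.3 UMIs per 10000 in the surrogate light chain group (median 0), to 3.23 to 309 in the late group (median 80.1), and to 0 to 76.9 in the third group (median 14.004). A light chain UMI was found in 13 of 52, 30 of 30 and 19 of 22 members of these groups. The surrogate light chain and late groups overlapped in range, although most members of the first had no light chain UMI and every member of the late group had one. In the plot of surrogate against conventional light chain UMIs, most members lie near one axis or the other.

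**Figure D1:**
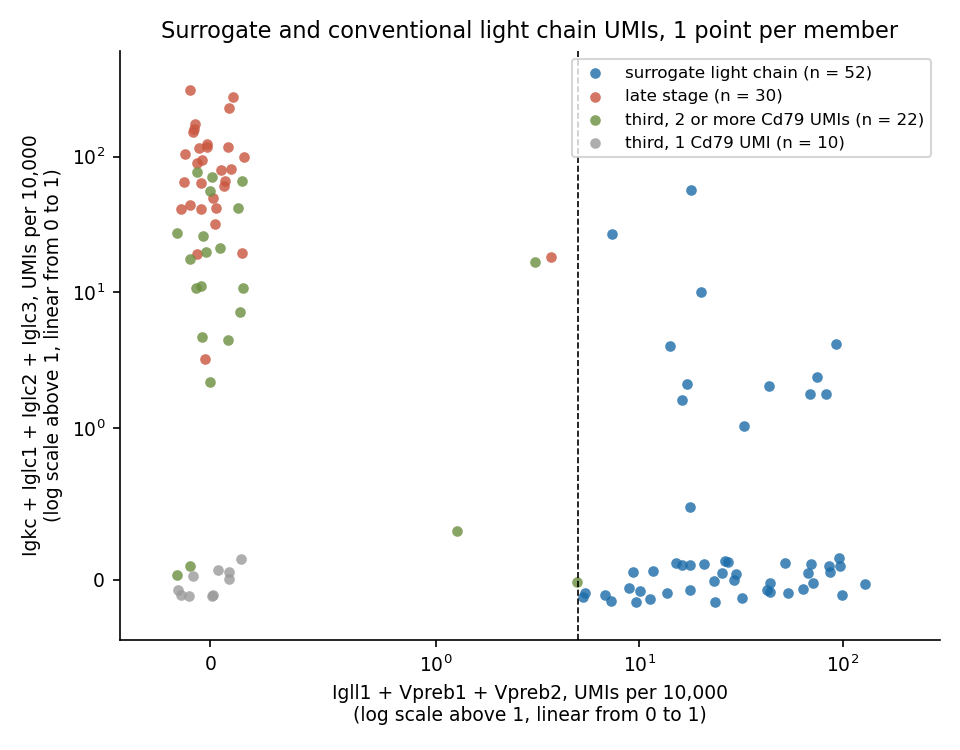
Each point is 1 of the 114 members, with surrogate light chain UMIs (Igll1, Vpreb1 and Vpreb2) on the horizontal axis and light chain constant UMIs (Igkc, Iglc1, Iglc2 and Iglc3) on the vertical axis, both per 10000 UMIs on a scale that is linear to 1 and logarithmic above, and with points at 0 spread slightly. The dashed line is the level of 5 per 10000; 13 of the 52 members to its right have a light chain UMI, and the late group (30 members) all have one.

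Kappa was the usual light chain. In the late group 26 members had more kappa than lambda UMIs and 4 had more lambda than kappa. Lambda UMIs without any kappa UMI were found in 2 late members, which held 84 and 102 of them. Another 21 late members had UMIs of both, but where kappa led, the median was 21.5 kappa UMIs and 3.5 lambda UMIs. The counts within a cell were therefore mostly one-sided. Iglc2 and Iglc3 were 95.1% identical over 451 aligned bases and Igll1 and Iglc1 were 78.9% identical over 323, so UMIs may be divided between these copies.

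Other early genes followed the surrogate light chain without having been used to set the groups. Over all tested genes, 8.12% of 5705 were called higher and 11.0% lower in the surrogate light chain group than in the late group, with a median ratio of 1.00. Of 10 further early stage genes, 5 were called higher and none lower. Dntt, the polymerase that adds bases at heavy chain joints, had 59 UMIs in 20 surrogate light chain members and none in the late group or the third, which puts it at least 3.76-fold higher than in the late group (floor of 3 UMIs over the group). Erg, a transcription factor of early progenitors, was at 168 CPM against no UMI in the late group, at least 6.88-fold higher. Lef1, a factor of early B lineage cells, was at 385 against 32.5 CPM, a ratio of 11.9 (4.57 to 43.9). Sox4, another early factor, was at 336 against 106 CPM, and Arpp21 was at 77.7 CPM against no UMI, at least 3.19-fold higher. The recombinase Rag1 was at 110 CPM in the surrogate light chain group, 65.0 in the late group and 128 in the third group, and the ratio of the first to the late group was 1.70 (0.816 to 4.08). Il7r, the receptor chain for the cytokine IL-7 that B progenitors depend on, was at 179, 106 and 190 CPM, and Myb, a progenitor factor, at 252, 146 and 195 CPM. For these 3 genes the ratio was under 2, so none was called.

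Late genes were the mirror image. Of 10 late stage genes tested between these groups, all 10 were called lower in the surrogate light chain group. Cd74, the chaperone of MHC class II, was at 7.77 CPM in the surrogate light chain group, 284 in the third and 5209 in the late group. The class II chains H2-Aa, H2-Ab1 and H2-Eb1 were at 414, 414 and 423 CPM in the late group and at 4.66, 40.4 and 1.55 CPM in the surrogate light chain group. Antigen presentation RNA was thus concentrated in the late group, but not in all of its members. Of its 30 members, 27 had a Cd74 UMI, while 9, 14 and 8 had one of H2-Aa, H2-Ab1 and H2-Eb1. H2-Ab1 was also found in 18 of the 52 surrogate light chain members, which were deeper. Macrophage barcodes had Cd74 at 927 CPM. Ccr7, a chemokine receptor that directs cells into lymphoid tissue, was at 349 CPM in the late group and 13.99 in the surrogate light chain group, a ratio of 0.0400 (0.0172 to 0.0832). Tnfrsf13c, the receptor for the survival factor BAFF, was at 317 against 59.1 CPM, and Fcmr, an IgM receptor, was at 244 CPM against no UMI, at least 52.3-fold higher. S1pr1, which guides exit into blood, was at 154 against 21.8 CPM. Cr2 and Fcer2a, markers of mature B cell subsets, had no UMI in any member.

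Identity genes were also graded. Ighm was at 1085 CPM in the surrogate light chain group, 1662 in the third and 3738 in the late group. Per member it held 0.664 to 48.7 UMIs per 10000 in the first (median 13.8) and 6.46 to 69.6 in the late group (median 40.6), and it was present in every member of all 3 groups. The kinase Blk was at 65.3, 139 and 593 CPM in the same order. Pax5 went from 163 to 309 CPM, and its ratio of 0.528 (0.361 to 0.787) missed the 2-fold call. Ebf1 did not grade, at 2177, 2041 and 1991 CPM. Vpreb3 was at 1692, 1177 and 1081 CPM, the reverse order, with a ratio of 1.57 (1.31 to 1.89). Ly6d, a surface protein of B lineage cells that is also on the plasmacytoid dendritic cell list, was at 54.4, 943 and 2609 CPM.

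**Figure D2:**
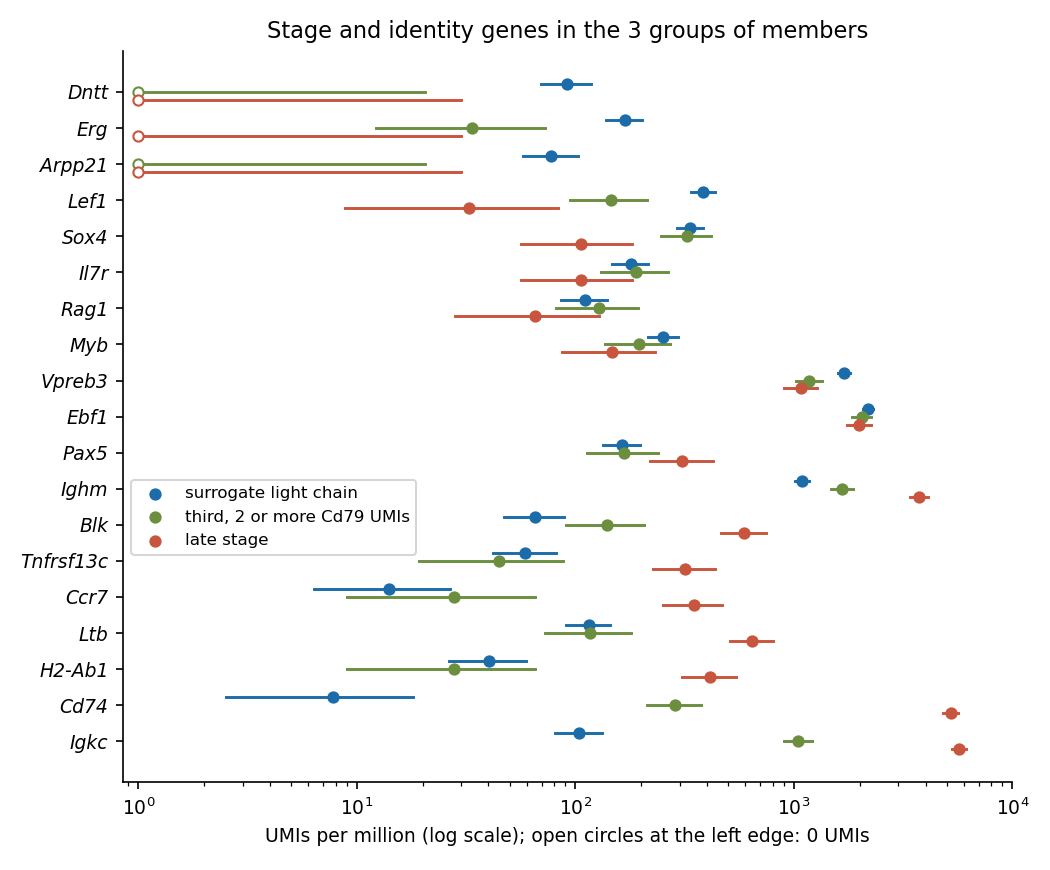
CPM (horizontal, log scale) of 19 stage, identity and receptor genes in the surrogate light chain group, the third group and the late group (52, 22 and 30 members), with bars for the 95% Poisson interval of the summed UMIs and open circles for 0 UMIs. Dntt, Erg and Arpp21 have no UMI in the late group, Ebf1 lies near 2000 CPM in all 3 groups, and Cd74 and Igkc reach 5209 and 5681 CPM in the late group.

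The third group combined features of both. Light chain UMIs were present in 19 of its 22 members, Rag1 or Rag2 UMIs in 9, and all 9 also had a light chain UMI. By comparison, Rag UMIs were found in 31 of 52 surrogate light chain members and in 4 of 30 late members. The surrogate light chain genes had 10 UMIs in 3 members of this group. Its erythroid list stood at 82757 CPM, of which 1 member with 21422 UMIs held 8632 of 14839 UMIs, and its fibroblast list at 5928 CPM against 455 CPM in the late group. Its glial and neuron lists, at 2130 and 502 CPM, were below the late group's 2657 and 715 CPM. What that RNA contributes to the group's values was not tested.

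Class switching and plasma cell genes were scarce. Class-switched constant genes had 13 UMIs in 3 members, with 12 of them from Ighg2b in 2 members and 10 of these in a single member. Of 8 plasma cell genes, 2 were called higher. They were Mzb1, a chaperone also used by other B cells, with 759 UMIs in 94 members, and Irf4, a factor of pre-B cells as well, with 131 UMIs in 52. Prdm1, Jchain and Tnfrsf17, the genes that define antibody-secreting cells, had 1 UMI each. Of 5 tested genes of the fetal program, which marks B lymphopoiesis before and around birth, 3 were called higher: Igf2bp3 at 96.8 against 22.1 CPM, Arid3a at 57.3 against 6.81 CPM and Hmga2 at 24.99 against 9.39 CPM. Other blood cells also held these RNAs: Arid3a was at 72.8 CPM in neutrophil or monocyte barcodes, and Igf2bp3 was at 46.4 CPM there and 69.0 CPM in macrophage barcodes. The fetal program list holds 6 genes, and 2 of them had no UMI in members. Of the 5 B-1 cell genes, 1 was called higher, Ctla4, on 3 UMIs.

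Transcription factors of the lineage were broadly higher. Of 15 factors, 12 were called higher in members and none lower, with a median ratio of 7.25. Ikzf3, an Ikaros family factor of maturing pre-B cells, was at 35.7 CPM in the surrogate light chain group and 715 CPM in the late group, a ratio of 0.0500 (0.0301 to 0.0798). Foxo1 was at 115 against 276 CPM and Irf8 at 54.4 against 179 CPM. Bach2, a repressor of plasma cell fate, was at 659 CPM in members and 90.9 CPM in other barcodes. Tcf4 (ratio 1.56), Myc (0.669) and Id3 (0.799) missed the call.

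Cell cycle genes were higher in members than in the rest of the ganglion. All 24 S phase genes and 22 of 26 G2 and M phase genes were called higher in members, none lower. Summed over the list, the S phase ratio was 3.28 (3.15 to 3.43) and the G2 and M phase ratio 2.59 (2.50 to 2.69). These sums weight deep members more: with every barcode weighted equally the ratios were 1.99 and 1.65, and without the 21 members over 3 times the median UMIs they were 2.18 and 1.82. Top2a, the topoisomerase that resolves replicated DNA, was at 352 CPM in members and 102 CPM elsewhere, and Mki67, a protein coating mitotic chromosomes, at 188 against 77.6 CPM. Ube2c, Pcna, Birc5 and Cenpa, which with Top2a had the most UMIs of the 2 lists, had ratios of 2.03, 2.61, 2.49 and 3.39.

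Single barcodes gave the same order. At least 40 cycle UMIs per 10000 were found in 30 members (26.3%, 18.5 to 35.4) and in 1262 other barcodes (13.6%, 12.9 to 14.3), with 9 members between 30 and 50. After thinning to 2000 UMIs, Mki67 or Top2a had a UMI in 28.3% of 99 members and 14.8% of 8218 other barcodes, against 33.3% and 27.8% before thinning. In neuron barcodes, which do not divide and had a median of 6780 UMIs, the thinned share was 4.19% and the unthinned share 17.3%. Macrophage barcodes had a thinned share of 13.9% and neutrophil or monocyte barcodes 18.2%.

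Within the members, cycling lay mainly outside the late group. The level of 40 was reached by 20 of 52 surrogate light chain members (38.5%, 25.3 to 53.0), 7 of 22 in the third group (31.8%, 13.9 to 54.9) and 3 of 30 late members (10.0%, 2.11 to 26.5). The cycle lists held 0 to 221 UMIs per 10000 in the surrogate light chain group (median 22.9), 0 to 144 in the third (median 10.9) and 0 to 205 in the late group (median 7.52), so the ranges overlapped fully. The G2 and M phase list was 2.63-fold higher (2.24 to 3.11) in the surrogate light chain group than in the late group, at 3396 against 1292 CPM. A single late member supplied 47 of the 159 late UMIs, and without it the late level was 962 CPM. Of the G1 genes, Ccnd3, the D cyclin that pre-B cells depend on, was at 284 CPM in the surrogate light chain group and 138 in the late group, while Ccnd2 was at 49.7 and 81.3 CPM. Cdk6, a partner of D cyclins, was at 186 against 16.3 CPM. The growth-restraining genes Btg1 and Btg2 went the other way, at 236 and 179 CPM against 813 and 610 CPM in the late group.

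**Figure D3:**
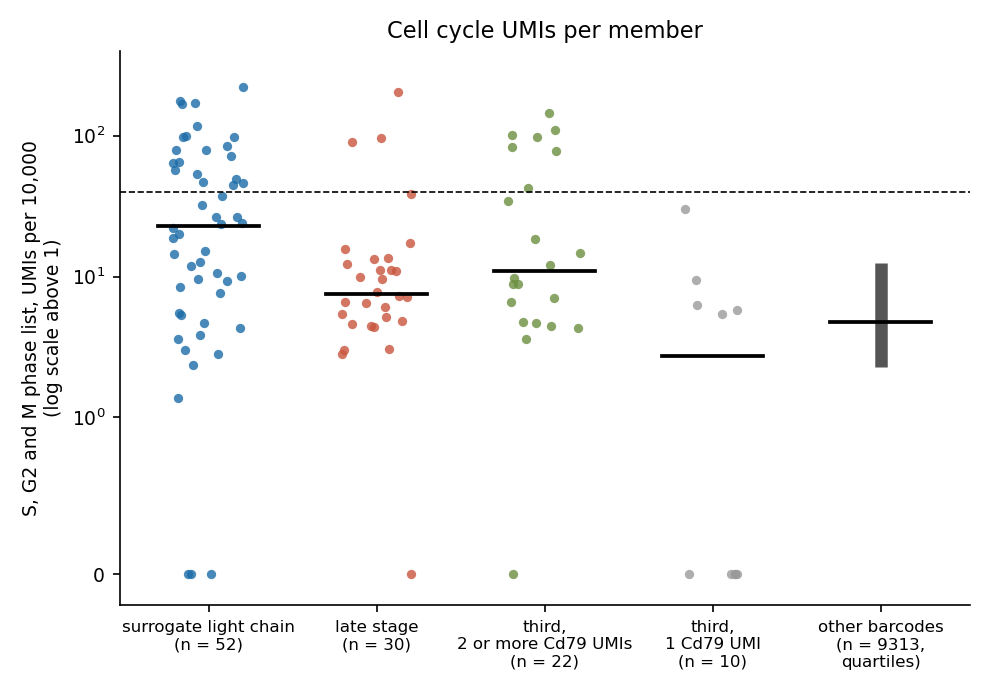
Each point is 1 member, with the UMIs of the S phase and the G2 and M phase lists per 10000 UMIs on the vertical axis (linear to 1, logarithmic above), by group. Black bars are medians, the grey bar spans the quartiles of the 9313 other barcodes, and the dashed line is the level of 40, passed by 20 of 52 surrogate light chain members and 3 of 30 late members.

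Inside the surrogate light chain group, the surrogate light chain genes made up a smaller share of UMIs in the cycling members. The 20 members at or over the cycle level held 5.29 to 53.9 UMIs per 10000 of the 3 genes (median 17.4), and the 32 under it held 5.38 to 128 (median 43.9). Over the 52 members the Spearman correlation of the 2 measures was -0.514, a description with all points from 1 library. Depth moved with both: the cycling members had a median of 13135 UMIs and the rest 5223.5, and UMIs per barcode correlated with the cycle measure at 0.482 and with the surrogate light chain measure at -0.340. Its part in the relation was not tested. Rag1 was at 36.9 CPM in the cycling members and 216 CPM in the rest, a ratio of 0.171 (0.0878 to 0.310). Dntt was at 42.1 against 163 CPM and Erg at 108 against 254 CPM. Igll1 and Vpreb1 had ratios of 0.552 and 0.426, and Vpreb3 one of 0.480. These ratios compare shares of UMIs, not UMIs per member. As counts, Igll1 had 344 UMIs over the 20 cycling members and 433 over the 32 others, and Vpreb1 had 312 and 509. Rag2, the partner of Rag1, had a ratio of 0.386 whose interval (0.102 to 1.28) included 1. Il7r did not follow, with a ratio of 1.12 (0.759 to 1.67), nor did Ighm, with 1.15 (0.984 to 1.34). Cxcr4, the receptor for the marrow chemokine CXCL12, was higher in the cycling members, at 89.6 against 41.7 CPM.

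Ligand genes were mostly low in members. Of 183 tested ligand genes, 8 were called higher (4.37%, against the 9.25% of all genes) and 80 lower (43.7%, against 18.6%), with a median ratio of 0.172. The members had 0 UMIs of 71 of the 199 listed ligands. Those called higher were mostly lymphoid. Ltb, lymphotoxin beta, which organises lymphoid tissue, was at 181 CPM in members and 2.21 CPM elsewhere, a ratio of 82.2 (67.8 to 99.3). It was found in 58 members, against 21 of 2845 fibroblast barcodes (0.738%), and per member it was highest in the late group, at 0 to 29.97 UMIs per 10000 (median 5.18), against 0 to 14.2 (median 0.101) in the surrogate light chain group. Il12a, a subunit of interleukins 12 and 35, was at 82.3 against 0.830 CPM and was found in 41 members, against 1.97% of fibroblast barcodes. Both genes were scarce in macrophage barcodes, at 4.73 and 0.278 CPM, but Ltb was at 64.2 CPM in neutrophil or monocyte barcodes. Il16, a T cell chemoattractant, was at 68.7 against 13.95 CPM. It had a UMI in 42.1% of members, 37.1% of neutrophil or monocyte barcodes and 16.5% of macrophage barcodes. Tgfb1, a broadly made immune regulator, was at 200 against 34.6 CPM and at 243 CPM in macrophage barcodes. Sema4b, a semaphorin, was at 34.4 against 12.5 CPM, and at 122 CPM in the late group.

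The other ligands called higher rested on few cells. Cxcl14, a chemokine, had 28 UMIs in 2 members, 27 of them in 1. Tnfsf11 (the cytokine RANKL) had 15 UMIs in 5 members with 10 in 1, and Tnfsf10 had 6 UMIs in 5; both fell under the naming minimum of 20 UMIs and were picked after their values had been seen. Without the members over 3 times the median UMIs these 3 were no longer called, and the other 5 kept the call. Cxcl14 then had no UMI left, Tnfsf11 had a ratio of 1.04, and Tnfsf10 had one of 3.95 (0.474 to 14.5) on 2 UMIs.

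No FGF, Hedgehog, WNT or Notch ligand was called higher in the members. Over all tested genes 9.25% were called higher and 18.6% lower. In lists this short, an absence of higher calls lies close to that share and is not read as particular to these families. None of 12 FGF ligands was called higher and 3 were called lower, and the 18 listed FGF genes gave 17 UMIs in all members together. Among Hedgehog ligands Dhh, a Schwann cell product, was lower at 28.1 against 73.4 CPM, and Shh had no UMI in members and was at 0.459 CPM elsewhere, below what 3 UMIs in members would give (3.12 CPM). Of the WNT list 14 genes and of the Notch list 5 were tested, and no VEGF or PDGF (11), EGF or neuregulin (9), neurotrophin or GDNF (9), or IGF, HGF or midkine (9) ligand was called higher either. The IGF, HGF and midkine list was not scarce in RNA, with 636 UMIs in members at 662 CPM, 2075 CPM in the third group and 1941 CPM in the other barcodes, and 4 of its 9 genes were called lower. The 5 ligands with the lowest ratios came from 9 called lower with no UMI in members, ordered by their level elsewhere. They were Nrg1, a Schwann cell growth factor made by neurons (at least 12.1-fold lower), Il1b (6.01-fold), Grp (3.56-fold), Fgf9 (2.14-fold) and Il6 (1.87-fold), all as lower bounds. Chemokines of macrophages were also low, with Ccl4 at 2.08 CPM in members and 83.3 CPM elsewhere. How far such low levels stem from free RNA in the droplets was not tested.

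Receptor and migration genes were higher more often than genes in general. Of 65 tested, 20 were called higher (30.8%, against 9.25%) and 13 lower, against 18.6% of all genes, with a median ratio of 0.988. Il7r was at 169 against 0.786 CPM, a ratio of 215 (167 to 276), and had no UMI in fibroblast barcodes. Ccr7 and Tnfrsf13c followed with ratios of 129 and 127, and S1pr4, a lymphocyte sphingosine phosphate receptor, with 60.9 (45.6 to 80.8). Tnfrsf13b, the BAFF and APRIL receptor TACI, was at 59.3 against 2.70 CPM. The cytokine receptor chains Il2rg, Il10ra and Crlf2 had ratios of 10.2, 7.63 and 3.42. Homing and adhesion genes were called higher as well: Cxcr4 at 86.4 against 10.8 CPM, Itga4 at 207 against 32.5 CPM and Selplg at 51.0 against 5.36 CPM. Cxcr4 and Itga4 were not limited to members. A Cxcr4 UMI was found in 41.2% of members, 38.8% of macrophage barcodes and 34.1% of neutrophil or monocyte barcodes. For Itga4 the shares were 55.3%, 38.2% and 38.3%. Median depth in these sets was 4385.5, 8669 and 6111 UMIs. Of 24 growth and patterning receptors 2 were called higher, Tgfbr2 and Fzd6, a share close to the 9.25% of all genes, and 7 were called lower. Fgfr2, the gene targeted in the molar mutants, was at 87.5 CPM in members and 88.5 CPM elsewhere, a ratio of 0.988 (0.787 to 1.22), and Ptch1, the Hedgehog receptor, was at 31.2 against 60.8 CPM.

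**Figure D4:**
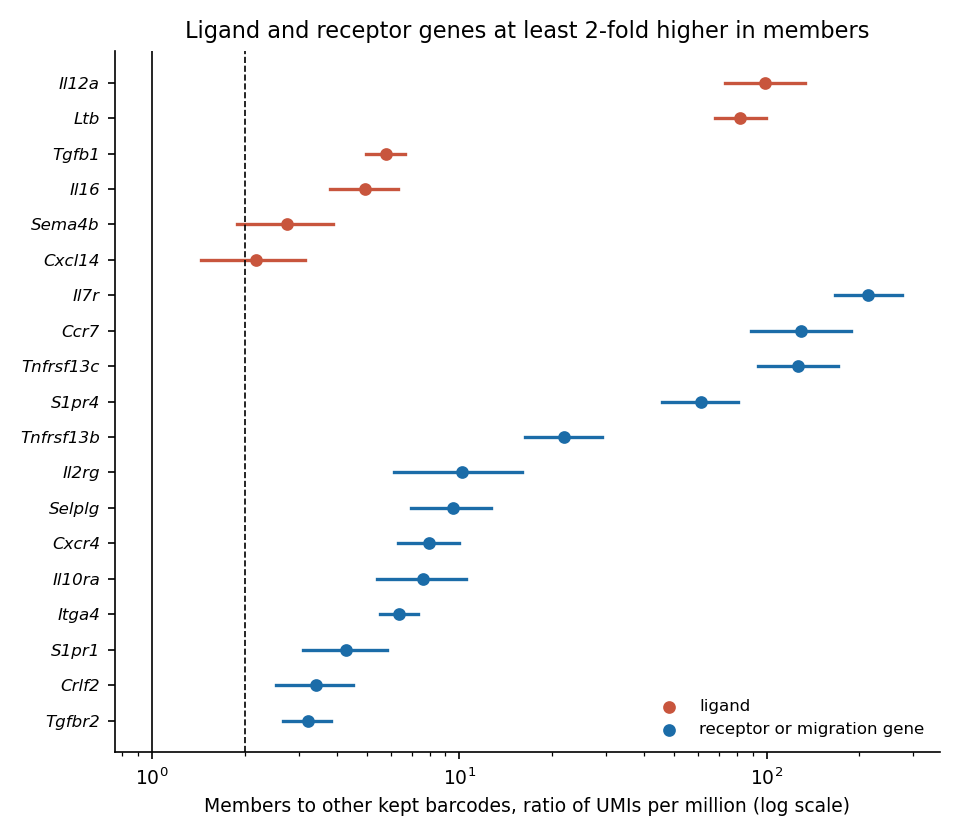
Ratio of CPM between members and the other kept barcodes (horizontal, log scale) for the ligand genes (6) and the receptor or migration genes (13) shown, all with at least 20 UMIs in members and called higher, with bars for the 95% counting interval. The solid line is a ratio of 1 and the dashed line a ratio of 2; Il12a, Ltb, Il7r, Ccr7, Tnfrsf13c and S1pr4 lie above 50.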

How the data were processed

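The deposited matrix holds UMI counts per gene and barcode, whole numbers that the authors did not normalise. Its header names Cell Ranger 7.0.1, a later version than the Cell Ranger 3.1.0 given, with the build mm10, in the submitters' processing notes. Neither says if introns were counted. Sums, CPM, exact Poisson, Clopper-Pearson and conditional binomial intervals were computed with scipy 1.17.1, pandas 2.3.3 and numpy 2.4.6 under Python 3.11.15. The calling rule was tested on counts simulated from pooled means with counting error alone. It called 49 and 50 of 50 genes raised 3-fold and 6-fold, and 44 and 47 of 50 lowered to 0.333 and 0.167. Of 19710 unchanged genes 219 were called. Variation between barcodes was not simulated, so these values give no error rate for the real data. The reference barcodes were taken from the other kept barcodes. Fibroblast barcodes had at least 50 UMIs per 10000 of Col1a1, Col1a2, Dcn and Lum, and neuron barcodes at least 100 of the neuron list. Both sets had to lack any Cd79 UMI, so stray B lineage RNA may be understated in them. Macrophage barcodes had at least 20 per 10000 of the C1q genes. Neutrophil or monocyte barcodes had at least 100 of S100a8 and S100a9 and fewer than 20 of the C1q genes. Thinning used seed 1. No doublet caller was run, and members over 3 times the median UMIs were left out as an alternative. Of 32285 gene IDs, 32235 were found in GENCODE vM21 (GRCm38), the source of gene coordinates and transcripts.

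The members and the gene lists were chosen with earlier results of these data known. The text names the listed stage, identity, immunoglobulin and fetal genes with at least 20 UMIs in members, those with most UMIs first; ligand and receptor genes with at least 20 UMIs that were called higher, and the 5 lowest ligands; Mki67, Top2a, Ccnd2, Ccnd3 and the 5 cycle genes with most UMIs; and the 15 genes outside all lists with the largest ratio among those with at least 50 UMIs. Other genes named were picked after their values had been seen. The proteins of the surrogate light chain were not used here, and some genes that the rule names are not reported here.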

Additional observations from a re-analysis of the deposited data

How the results depend on the processing

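Each of 11 results was recomputed under up to 15 other settings, which gave 125 values. None changed direction, 97 stayed within 1.5 times for a count or within the main counting interval for a share or ratio, and 28 moved. Requiring 2 Cd79 UMIs, leaving out members rich in fibroblast, glial or neuron genes, and comparing with barcodes without any Cd79 UMI were added after seeing the data. The share of members, 1.21%, was 0.972% with no filter on barcodes, 0.976% and 1.49% at Cd79 levels of 10 and 2 per 10000, and 0.987% both without members over 3 times the median UMIs and without members rich in other markers. The S phase ratio, 3.28, was 3.46 with no filter, 3.45 and 3.04 at Cd79 levels of 10 and 2, 2.18 without large members, 1.99 as a mean over barcodes, 2.12 after thinning, 3.69 without members rich in other markers and 3.13 against barcodes without Cd79 UMIs. The G2 and M phase ratio, 2.59, was 2.70 and 2.42 at Cd79 levels of 10 and 2, 1.82 without large members, 1.65 as a mean, 1.88 after thinning and 2.39 against barcodes without Cd79 UMIs, and between the surrogate light chain and late groups, 2.63, it was 1.81, 2.10 and 2.10 without large members, as a mean and after thinning. Genes called lower numbered 3709, but 8949 as a mean over barcodes, where calls carry no interval, and 1743 after thinning. Ligands called higher numbered 8, but 5 without large members and 14 as a mean, and ligands called lower 80, but 144 as a mean and 38 after thinning. Thinning leaves fewer UMIs to call from; the cause of the other shifts was not tested. No paired analysis was possible because the ganglion gave 1 library and no other library was used. With no replicate, intervals cover counting error alone.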

Other observations

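Immunoglobulin V gene UMIs were spread over many genes. Heavy chain V genes gave 93 UMIs in 35 members from 39 of the 185 heavy V genes in the table, and 15 UMIs in all other barcodes. Kappa V genes gave 57 UMIs in 31 members from 19 of 160 genes, and lambda V genes 10 UMIs in 6 members. A heavy V UMI was found in 20 of the 52 surrogate light chain members, 10 of the 30 late members and 5 members of the third group. A kappa V UMI was found in 9, 13 and 9 members in the same order. With so few UMIs per member, no clone can be followed.

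Outside the gene lists, the 15 genes with the largest ratios had between 56 and 526 UMIs in members. Ptprcap, a protein associated with the phosphatase CD45, had 526 UMIs in 92 members and was at 548 CPM against 2.26 CPM elsewhere. Slamf6 and Slamf7, receptors of the SLAM family, had ratios of 501 and 306. Slamf7 was at 141 CPM in the surrogate light chain group and 40.6 CPM in the late group and was called higher in the first, while Slamf6, at 94.8 and 163 CPM, missed the call. Siglecg, an inhibitory receptor of B cells, had a ratio of 418 and was at 65.3 against 366 CPM in these groups. Rhoh, a small GTPase of blood cells, was at 117 against 382 CPM. Gpat3, a lipid synthesis enzyme, and Ifi209, an interferon-inducible gene, had ratios of 156 and 114. The other 8 have no established name or function that could be given here: Gm30211, Gm37065, Gm8369, BE692007, 1700027J07Rik, Gm32569, 1810059H22Rik and BC035044. Of these, Gm32569 (132 against 32.5 CPM), 1700027J07Rik (93.2 against 32.5 CPM) and 1810059H22Rik (83.9 against 8.13 CPM) were called higher in the surrogate light chain group, and Gm30211 (10.9 against 179 CPM) in the late group.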
